A study of Mus musculus with 15 samples.

Results

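Memory-phenotype (MP) CD8+ T cells were compared with Naive CD8+ T cells of the same organs through the CDR3 loops of their T cell receptor alpha chains. All 5 MP and all 5 Naive libraries were used, 10 of the 15 libraries of the series. Both groups came from male TCRbtg mice on the C57BL/6 background, aged 9 weeks, which carry a transgene for 1 T cell receptor beta chain. Spleen and lymph nodes of a mouse were pooled before sorting. Naive cells were gated as CD8b+ CD4neg CD44lo CD122neg and MP cells as CD8b+ CD4neg CD44hi CD122+. The other 5 libraries, from prostate tumours of TCRbtg TRAMP+/- males aged 27 weeks, sorted as CD8b+ CD4neg, are used here in 1 comparison. The 10 libraries listed 88584 different CDR3 peptides of the 92219 in the series, of which 73948 were listed in Naive, 25439 in MP and 10803 in both.

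A T cell receptor is a pair of an alpha and a beta chain, and the CDR3 loop of each chain lies where its gene segments are joined. In the alpha chain a variable segment (TRAV) gives the first residues of the loop, a joining segment (TRAJ) gives the last ones, and trimming and added bases at the joint set the residues between them. With the beta chain fixed by a transgene, the alpha chain carries most of the differences between the receptors of different cells. MP CD8+ T cells carry the activation marker CD44 and the cytokine receptor subunit CD122, arise in mice that were not deliberately immunised, and by its title the series concerns such cells that recognise self. The files hold receptor peptides and no other transcripts, so the sort gates were not checked against markers.

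The largest groups of related MP loops and their Naive relatives show what differed. A family below is a set of loops that were all called higher in MP, or all lower, had equal length, and were linked by single substitutions. These are the leading members of the largest MP family, which share the end SNTNKVV, a TRAJ34 end, and 2 loops of the same end and length that were called lower in MP:

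MP, glycine at position 3: ALGSSNTNKVV
MP, alanine at position 3: ALASSNTNKVV
MP, methionine and alanine at positions 2 and 3: AMASSNTNKVV
MP, methionine and glycine at positions 2 and 3: AMGSSNTNKVV
Naive, proline at position 3: ALPSSNTNKVV
Naive, valine at position 2: AVSSSNTNKVV

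The next lines hold loops that end in YNQGKLI, a TRAJ23 end. Of those labelled MP below, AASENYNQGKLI still made up 0.375 to 0.597% of the reads of Naive libraries. Each loop labelled Naive below lost its call when any one Naive library was left out. The loops are shown because a change of 1 residue before this end went with calls in opposite directions:

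MP, glycine before NYNQGKLI: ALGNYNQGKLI
MP, alanine before NYNQGKLI: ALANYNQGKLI
Naive, methionine at position 3: ALMNYNQGKLI
MP, glutamate at position 4: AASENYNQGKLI
Naive, methionine at position 4: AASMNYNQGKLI
Naive, valine at position 4: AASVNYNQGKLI

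The last set holds loops of 8 or 9 residues, the lengths that gained most in MP:

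MP, TRAJ49 end: AMAGYQNFY
MP, TRAJ26 end: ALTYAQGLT
MP, TRAJ26 end, 8 residues: ALYAQGLT
MP, TRAJ34 end: APSNTNKVV
MP, TRAJ22 end: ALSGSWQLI
MP, 8 residues: ALRGRALI
Naive, TRAJ43 end: AIDNNNAPR

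The values were reads per CDR3 peptide, and a share is the reads of a loop over all reads of its library. Libraries held 547665 to 702663 reads in Naive and 574484 to 881988 in MP. Naive libraries listed 14914 to 29559 different loops. MP libraries 1 and 5 listed 12401 and 13950, and MP libraries 2, 3 and 4 listed 3392, 2216 and 2934. MP 1 and MP 5 thus stood apart in the number of rare loops, and results are given without them where that matters. The lowest count listed in a library was 2 reads. Reads made by PCR are not independent molecules, cell numbers were not in the labels, and fewer cells with a loop cannot be told apart from less receptor RNA per cell. The labels name 5 different mice but not whether an MP and a Naive library of the same number share one.

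MP reads were concentrated on few loops. The number of loops that together took 50% of the reads was 249, 260, 233, 264 and 244 in Naive libraries 1 to 5. It was 61, 71, 56, 59 and 56 in MP libraries 1 to 5. The groups did not overlap, and MP 1 and MP 5, which listed the most rare loops in their group, lay among the other MP libraries. The means were 250 ± 12.5 and 60.6 ± 6.19 (SD, n = 5 each) and differed by -189 in MP. An exact permutation test over the splits of 5 against 5 libraries gave a two-sided p of 0.00794, the smallest it can give. Loops that each took at least 1% of reads numbered 3 to 5 per Naive library and 10 to 13 per MP library, and summed to 4.70 to 6.85% and 24.7 to 30.3% of reads. The class from 0.1 to 1% was alike in size, with 34.9 to 37.9% of Naive and 34.2 to 39.7% of MP reads. Loops under 0.01% took 29.8 to 31.7% of Naive reads. In MP they took 2.73 to 21.5%, and the mean was 11.1 ± 9.27% (SD, n = 5).

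**Figure D1:**
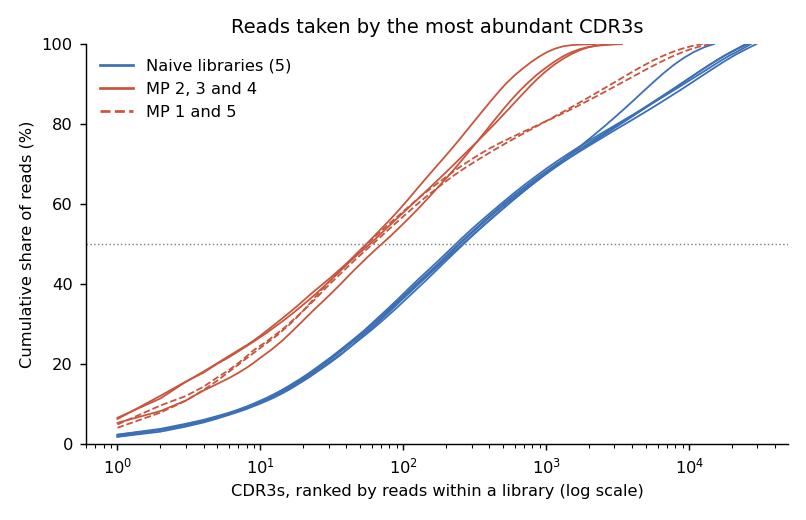
Cumulative share of reads (%, vertical axis) against the number of CDR3s counted from the most abundant (log axis), with 1 line for each of 5 Naive and 5 MP libraries, MP 1 and MP 5 dashed. The 5 MP lines rise above all 5 Naive lines, and 50% of reads is reached at 56 to 71 CDR3s in MP and at 233 to 264 in Naive.

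The abundant loops of one subset were mostly rare in the other. Of the 100 most abundant loops of a library, 83 to 93 were also among the 100 of another Naive library for Naive, and 62 to 85 were among those of another MP library for MP. Between a Naive and an MP library only 5 to 7 were shared. These 100 took 35.6 to 37.6% of reads in Naive and 55.1 to 59.8% in MP libraries. Rare is not the same as unlisted. Of the 100 of an MP library 91 to 97 were listed in at least 1 Naive library and 49 to 56 in all 5 Naive libraries, while of the 100 of a Naive library 91 to 93 were listed in some MP library and 15 to 19 in all 5. Loops listed in all 5 Naive libraries took 50.4 ± 1.43% of MP reads, and loops listed in all 5 MP libraries took 9.52 ± 0.394% of Naive reads (SD, n = 5 each). MP libraries list fewer loops in all, which lowers the second of these values.

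The leading loops of each subset outside the families described further on show the same contrast. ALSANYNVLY took 0.910 to 1.81% of MP and 0.00283 to 0.00714% of Naive reads. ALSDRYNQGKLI took 1.18 to 1.70% and 0.0407 to 0.0751%, and was the better represented of these in Naive cells. APSNSGTYQR took 0.904 to 1.75% of MP and at most 0.00313% of Naive reads, and AASNTGNYKYV 0.733 to 1.58% and at most 0.00330%. In Naive cells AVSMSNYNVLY was the most abundant loop of every library, with 1.83 to 2.37% of reads, and took at most 0.0301% in MP. AALNNNNAPR took 0.772 to 0.990% of Naive and at most 0.00541% of MP reads, and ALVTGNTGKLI and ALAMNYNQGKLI, at 0.642 to 1.04% and 0.639 to 0.828% of Naive reads, took at most 0.00918 and 0.00570% in MP. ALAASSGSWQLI took 0.681 to 0.992% of Naive and 0 to 0.0707% of MP reads. Its call (edgeR adjusted p = 0.0321) was lost without MP 5 or any one Naive library, at 0.0524 to 0.0582. These 9 loops were picked as called loops with the highest share in a subset. That the groups overlapped in none of them largely follows from this choice.

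Short loops took more of the MP repertoire. Loops of 8 residues took 1.05, 1.04, 1.10, 0.992 and 1.12% of reads in Naive libraries 1 to 5 and 5.31, 4.80, 5.38, 4.15 and 4.32% in MP libraries 1 to 5. Loops of 9 residues took 4.71 to 5.15% in Naive and 10.8 to 13.5% in MP. At both lengths every MP library lay above every Naive library. Of 7 lengths tested, 2 were higher in MP (28.6%), these same 2, and 3 were lower (42.9%). Loops of 10 residues fell from 21.2 ± 0.807% to 16.1 ± 1.08% and loops of 14 from 3.51 ± 0.266% to 1.74 ± 0.163% of reads (SD, n = 5 each; exact permutation test, adjusted p = 0.0139 for lengths 8, 9, 10 and 14). Loops of 13 fell from 9.57 ± 0.454% to 7.83 ± 1.30% (exact permutation test, adjusted p = 0.0333). Loops of 11 residues, the most used length, took 31.8% and 31.3% (exact permutation test, adjusted p = 0.683). After removal of the 10 most abundant loops of each library, length 11 took 29.9% in Naive and 23.6% in MP (exact permutation test, adjusted p = 0.00926). Its difference by different loop was -1.89 percentage points (exact permutation test, adjusted p = 0.0185). Length 12 passed as lower in MP in both of these, with -3.25 and -2.61 points. Length 13 did not pass after that removal, with -0.724 points (exact permutation test, adjusted p = 0.167). Counted by different loop instead of by read, 10 residues were 1.45 percentage points higher in MP (exact permutation test, adjusted p = 0.135), so that its direction depends on the weight.

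**Figure D2:**
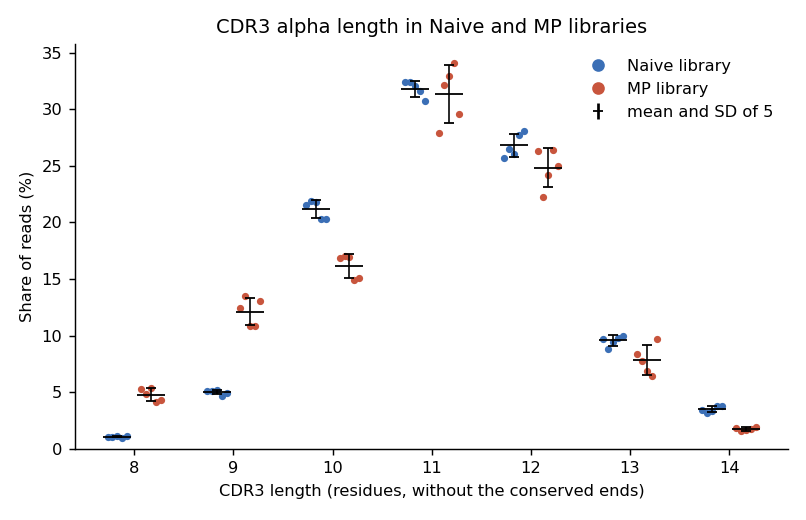
Share of reads (%, vertical axis) at each CDR3 length in residues (horizontal axis); points are single libraries and bars give the mean and SD of 5 Naive and of 5 MP libraries. Lengths 8 and 9 are higher in all 5 MP libraries, and length 11 overlaps between the groups.

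Together, loops of 8 or 9 residues held 6.06 ± 0.216% of the reads in Naive and 16.9 ± 1.30% in MP (SD, n = 5 each). They were 7.85 to 8.44% of the different loops of a Naive library and 15.9 to 22.7% of those of an MP library, so the gain was not in reads alone. Tests of single loops used the same reads, so their counts by length describe the gain and are no further support for it. Of 5954 loops tested with edgeR, 753 were called higher in MP (12.6%) and 2863 lower (48.1%) at an adjusted p under 0.05. At 8 residues 132 of 244 tested were higher (54.1%) and 43 lower, and at 9 residues 158 of 567 were higher (27.9%) and 169 lower. From 10 to 14 residues the share called higher lay between 6.25 and 10.4%. A loop entered this test with 10 reads in 3 libraries, which 1 subset alone could supply. Of the 753, 353 were listed in no Naive library, and of the 2863, 2138 in no MP library. No tested loop that was absent from a whole subset was left without a call, so the direction of these calls was fixed by the filter. Without MP 1 and MP 5 fewer loops reached the filter, and 356 were higher and 3436 lower of 4867 tested.

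**Figure D3:**
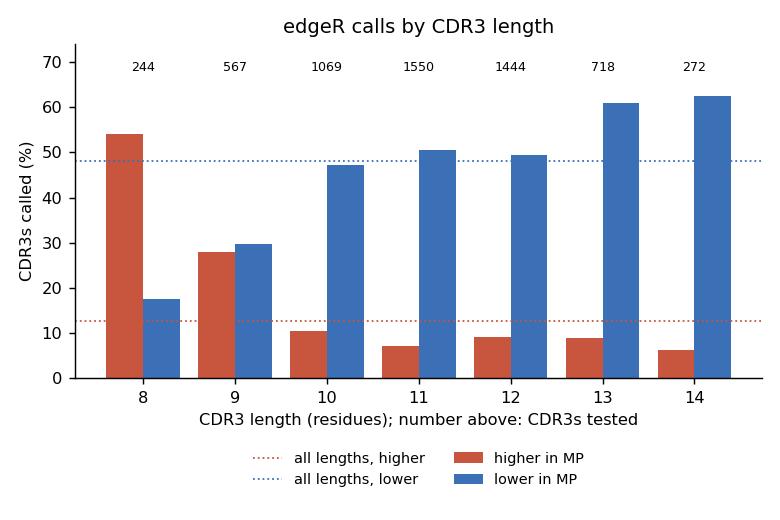
Share of tested CDR3s (%, vertical axis) called higher or lower in MP at each CDR3 length in residues (horizontal axis), from the edgeR test on 5 Naive and 5 MP libraries; dotted lines give the shares over all lengths and the numbers above the bars are CDR3s tested. Calls higher in MP reach 54.1% at 8 residues and stay at or under 10.4% from 10 to 14 residues.

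The leading short loops, picked for display once their values were known, were among the common loops of MP cells. AMAGYQNFY took 1.02, 1.00, 0.773, 0.851 and 0.937% of reads in MP libraries 1 to 5 and at most 0.00519% in any Naive library. It was not listed in Naive 2, and its log2 fold change was 8.83 ± 1.17 (SE; edgeR adjusted p = 0.000662). ALRGRALI took 0.646, 0.415, 0.692, 0.556 and 0.408% in MP and at most 0.000362% in Naive, with no listing in Naive 2 and Naive 3. APSNTNKVV was listed in all 5 Naive libraries, as were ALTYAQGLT and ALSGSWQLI. It took 0.00815 to 0.0130% in Naive and 0.425 to 1.00% in MP. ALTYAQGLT leads a family of 9 loops of 9 residues that end in AQGLT, which took 2.11, 2.06, 0.863, 1.12 and 2.25% of reads in MP libraries 1 to 5. The same 9 loops took at most 0.00530% in a Naive library. MP 3 and MP 4 held the least of this family and lay far above every Naive library. Short loops were not all MP loops. AIDNNNAPR, of 9 residues, took 0.326 to 0.369% of Naive reads and 0 to 0.0280% of MP reads (edgeR adjusted p = 0.0153).

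Loops were also shorter in MP within many joining ends, in a comparison that was added after values were seen. The mean length of the loops that share their last 6 residues was tested for 29 ends, of which 13 were shorter in MP (44.8%) and 4 longer (13.8%). Loops ending in SFSKLV had a mean of 12.7 ± 0.0355 residues in Naive and 11.2 ± 0.304 in MP. Those ending in GSWQLI, from TRAJ22, had 11.5 ± 0.0321 and 10.2 ± 0.472. Those ending in YAQGLT, from TRAJ26, had 10.9 ± 0.0261 and 9.72 ± 0.268 (SD, n = 5 each; exact permutation test, adjusted p = 0.0164 for each of the 3). Loops ending in NTNKVV, the end that gained most reads in MP, had 10.9 residues in both (exact permutation test, adjusted p = 0.976). The 4 that were longer in MP end in SLGKLQ, GGYKVV, SNAKLT and FASALT. Counted by different loop, 20 ends were shorter and 1 was longer, GGYKVV. By that count SLGKLQ turned shorter, with a difference of -0.109 residues, and NTNKVV was shorter, with -0.242 (exact permutation test, adjusted p = 0.0438 and 0.0256).

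The first residues of the loop, which come from the variable segment, also differed. Of 10 two-residue starts tested, 4 were higher (40%) and 6 lower (60%) in MP, which leaves none without a call. Loops that start with AL took 31.7, 31.9, 30.2, 29.1 and 28.0% of Naive reads and 38.5, 40.9, 42.3, 40.3 and 37.0% of MP reads in libraries 1 to 5. Loops that start with AV took 14.5, 12.2, 13.5, 12.02 and 12.8% in Naive libraries 1 to 5 and 6.55 ± 0.499% in MP, with 7.39% in MP 1 as the highest (SD, n = 5). Neither start overlapped between the groups. AP took 1.98 to 2.24% in Naive and rose to between 3.86 and 6.05% in MP. AM rose from 5.80 ± 0.157% to 9.12 ± 1.86% and AW from 0.407 ± 0.0530% to 0.814 ± 0.249% (SD, n = 5 each; exact permutation test, adjusted p = 0.0132 for these 3, AL and AV). AA fell from 29.5 ± 3.01% to 24.1 ± 3.16% (exact permutation test, adjusted p = 0.0198), and the groups overlapped: MP 4 at 27.1% lay above Naive 1 at 26.5%. AI, AT, AF and AS fell to 4.06, 2.88, 1.97 and 1.54% of MP reads from 6.43, 4.02, 2.80 and 1.91% of Naive reads. By different loop AL and AP were still higher in MP, while the difference of AM was -2.70 percentage points (exact permutation test, adjusted p = 0.0159). AV did not pass by different loop, with a difference of -0.912 points (exact permutation test, adjusted p = 0.222). Without the 10 most abundant loops of each library, AL did not pass, and its difference was 3.30 points against 9.60 by all reads (exact permutation test, adjusted p = 0.0680). Without MP 1 and MP 5 no start could pass after adjustment, since the smallest unadjusted p that 3 against 5 libraries allow is 0.0357.

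The ends of the loop, which come from the joining segment, differed as well. Of 29 six-residue ends tested, 8 were higher (27.6%) and 14 lower (48.3%) in MP. SGTYQR, a TRAJ13 end, took 0.482, 0.464, 0.469, 0.526 and 0.463% of Naive reads and 2.83, 1.56, 2.67, 2.16 and 1.85% of MP reads in libraries 1 to 5. SLGKLQ, a TRAJ24 end, took 0.982 to 1.12% in Naive and 3.09 to 4.18% in MP. NTNKVV took 8.24 to 11.5% in Naive and 16.2 to 22.0% in MP. For all 3 the lowest MP library lay above the highest Naive library. The difference of NTNKVV, 9.22 percentage points by reads, was 1.54 without the 10 most abundant loops of each library and 1.06 by different loop, and neither passed (exact permutation test, adjusted p = 0.239 and 0.379). In the other direction GNEKIT, a TRAJ48 end, took 3.16, 3.12, 3.08, 2.96 and 3.19% of Naive reads and 0.537, 1.06, 0.483, 0.346 and 0.773% of MP reads. NNNAPR, a TRAJ43 end, took 6.56 to 7.48% in Naive and 1.72 to 2.21% in MP, and NTGKLI, a TRAJ37 end, 3.29 ± 0.0560% and 1.58 ± 0.266% (SD, n = 5 each). Each of these 6 ends had an adjusted p of 0.0115 in the exact permutation test. NQGKLI, the TRAJ23 end with the largest share in Naive, did not pass, with 15.9 ± 1.36% in Naive and 14.0 ± 1.41% in MP (SD, n = 5 each; exact permutation test, adjusted p = 0.0885). Single loops with this end were called in both directions, and the families below are made of such called loops.

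NTGKLT, YAQGLT and GNYKYV were also among the 6 ends with the largest gains, and NAYKVI, GYQNFY and GSWQLI among the 6 with the largest losses. NTGKLT rose from 4.83 ± 0.137% to 8.25 ± 1.30%, YAQGLT from 3.62 ± 0.198% to 5.29 ± 0.797% and GNYKYV from 2.54 ± 0.165% to 4.16 ± 0.845% (SD, n = 5 each). NAYKVI, a TRAJ30 end, fell from 6.58 ± 0.439% to 3.51 ± 0.584%. GYQNFY fell from 7.37 ± 0.203% to 5.82 ± 1.08% and GSWQLI from 3.24 ± 0.0969% to 2.29 ± 0.439% of reads. By different loop the differences of NTGKLT and GNYKYV were -1.22 and -0.882 percentage points, so that both gains were in reads and not in the number of loops. YAQGLT did not pass by different loop, with 0.162 points (exact permutation test, adjusted p = 0.814). Without the 10 most abundant loops of each library, the difference of the end NTGKLT was -0.471 points. GSWQLI turned sign both ways, with 0.125 points by different loop and 0.666 without those loops. GYQNFY passed in neither, with -0.432 and -0.371 points (exact permutation test, adjusted p = 0.610 and 0.554), and nor did NAYKVI, with -0.144 and -0.952 points (exact permutation test, adjusted p = 0.814 and 0.0921).

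Weighted by all reads, methionine was the residue of the junction that changed most in proportion. Over positions 3 to 5, counted from 1 at the first residue, 6 of 20 amino acids were higher (30%) and 10 lower (50%) in MP when weighted by reads. Methionine took 3.45, 3.18, 3.50, 3.33 and 3.48% of these positions in Naive libraries 1 to 5 and 1.33, 1.46, 1.09, 1.23 and 1.41% in MP libraries 1 to 5. All Naive libraries lay above all MP libraries. After removal of the 10 most abundant loops of each library, methionine took 2.255% in Naive and 1.73% in MP. Isoleucine then changed more in proportion, from 1.11% to 0.664%. By different loop methionine took 1.84% and 1.61% (exact permutation test, adjusted p = 0.0159 for methionine in both). Isoleucine fell from 0.991 ± 0.0613% to 0.498 ± 0.101%, leucine from 2.17 ± 0.0962% to 1.45 ± 0.194%, valine from 2.87 ± 0.102% to 2.24 ± 0.0674% and lysine from 0.721 ± 0.0561% to 0.479 ± 0.0493%. Serine rose from 22.9 ± 0.512% to 25.5 ± 1.00%, glycine from 11.7 ± 0.225% to 13.3 ± 0.362%, alanine from 7.17 ± 0.192% to 8.46 ± 0.347% and tyrosine from 4.42 ± 0.0674% to 5.57 ± 0.606% (SD, n = 5 each; exact permutation test, adjusted p = 0.00992 for each residue named so far). Threonine and tryptophan rose too, and histidine, proline, glutamate, asparagine and cysteine fell, with the same adjusted p. Arginine, phenylalanine, glutamine and aspartate did not pass.

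**Figure D4:**
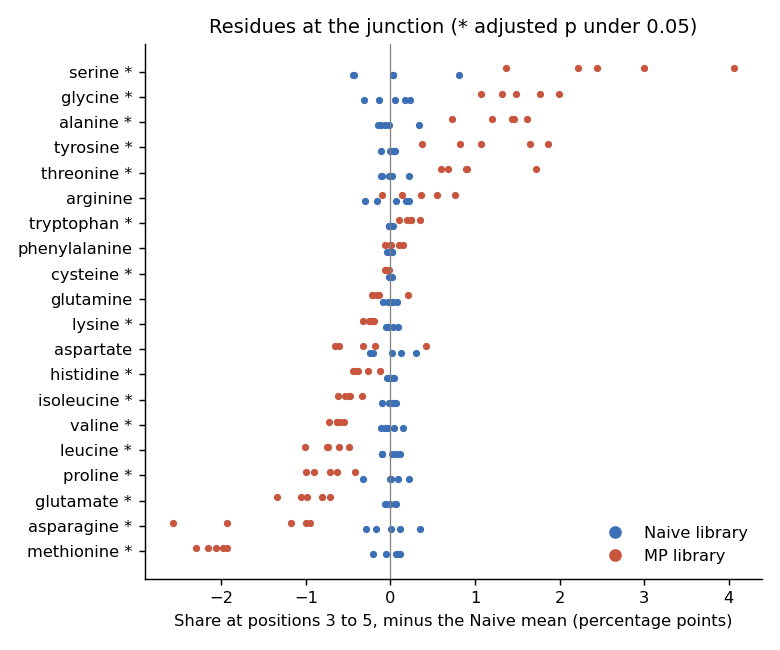
Share of positions 3 to 5 of the CDR3 held by each amino acid, weighted by reads, minus its mean over the 5 Naive libraries (percentage points, horizontal axis), with 1 point for each Naive and MP library; asterisks mark an adjusted p under 0.05. All 5 MP points lie right of the Naive points for serine and glycine and left of them for methionine.

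Single positions gave larger differences than their sum. At position 3 glycine took 8.37 ± 0.540% of Naive and 14.5 ± 0.905% of MP reads (SD, n = 5 each; exact permutation test, adjusted p = 0.0132). At position 4 methionine took 7.17 ± 0.326% and 1.83 ± 0.279%, and serine 10.7 ± 0.431% and 17.8 ± 2.35% (exact permutation test, adjusted p = 0.0198 for both). At position 5 asparagine had a difference of -8.10 percentage points from 25.1 ± 0.755% in Naive, though at position 4 it rose from 11.3 ± 0.301% to 16.6 ± 1.36%. These positions can hold residues of the joining end, in short loops and also in longer ones such as ALGSSNTNKVV and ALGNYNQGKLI. Lengths and ends therefore bear on them. Without the 10 most abundant loops of each library, serine and glycine differed by -0.0307 and -0.437 percentage points in MP (exact permutation test, adjusted p = 0.952 and 0.0741). By different loop both were higher in MP, by 1.36 and 0.683 points (exact permutation test, adjusted p = 0.0454 and 0.0159).

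Abundant called loops came in families in both subsets. Among loops called with a mean share of at least 0.05% in their subset, 99 of 181 MP loops (54.7%) fell into 30 families and 110 of 203 Naive loops (54.2%) into 31. The largest MP family has 11 members of the form AxxxSNTNKVV, with x for the residues that vary. Together they took 10.6, 11.8, 14.2, 14.5 and 10.7% of reads in MP libraries 1 to 5 and 0.172 to 0.235% in Naive. The calls chose these loops, so the sums describe them and test nothing. Its first member ALGSSNTNKVV took 4.75, 5.33, 6.59, 5.82 and 4.08% in MP and 0.0827 to 0.110% in Naive. AMGSSNTNKVV took 0.559 to 0.929% in MP and 0 to 0.0474% in Naive, and its call (edgeR adjusted p = 0.0235) did not hold without Naive 2 or without Naive 4, at 0.0511 to 0.0516. Naive cells used the same end with other residues before it: 9 loops of the form AxxxSNTNKVV called lower in MP took 0.743 to 1.35% of Naive and 0.000587 to 0.0853% of MP reads.

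The next 2 MP families by share end in YNQGKLI, as does the largest Naive family. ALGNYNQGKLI and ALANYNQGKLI lead 3 MP loops of the form ALxxYNQGKLI, which took 3.27, 3.60, 3.55, 3.25 and 4.46% of MP reads and 0.0161 to 0.0828% of Naive reads. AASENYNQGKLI and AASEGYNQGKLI form a pair that took 1.83 to 3.62% in MP and 0.559 to 0.760% in Naive. It was thus the MP family best represented in Naive cells among the 3. The largest Naive family, AAxxxYNQGKLI, has 12 members that took 4.26 ± 0.710% of Naive reads (SD, n = 5), with 3.46% in Naive 1 as the lowest, and 0.0209 to 0.140% of MP reads. The next Naive families were AxxDTNAYKVI, 5 loops with 2.32 to 2.59% of Naive and 0.0164 to 0.0413% of MP reads, and AxxxGYQNFY, 6 loops with 1.60 to 2.13% and 0.0214 to 0.138%. AVRDTNAYKVI and AVSTGYQNFY lead them. AARDTNAYKVI, AVNTGYQNFY and ASNTGYQNFY are named members with edgeR adjusted p of 0.0356, 0.0389 and 0.0388. Without any one of the Naive libraries, or without MP 4 or MP 5, each was above the threshold, at up to 0.0740. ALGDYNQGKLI of the family ALxxYNQGKLI was above it without Naive 1, 3, 4 or 5, at 0.0527 to 0.0611, and with no count filter, at 0.0550.

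Loops 1 residue apart were called alike more often than in opposite directions, but opposite pairs were found. Of the called loops, 910 pairs of equal length differed at 1 position and were called in opposite directions, beside 763 pairs both higher and 4410 both lower in MP. At least 1 oppositely called neighbour was found for 327 of the 753 loops higher in MP (43.4%) and for 560 of the 2863 lower (19.6%). A like-called neighbour was found for 523 (69.5%) and 2289 (80.0%). In both sets a like-called neighbour was thus more frequent than an opposite one. Loops higher in MP were 20.8% of all 3616 called loops. By number alone a neighbour was more often one called lower. This raises the opposite share for loops higher in MP and lowers it for the others. The differing residue lay at position 2 in 238 pairs (26.2%), position 3 in 247 (27.1%), position 4 in 273 (30.0%) and position 5 in 128 (14.1%), and beyond position 5 in few, with 11 at position 6. Leaving out Naive 1, 2, 3, 4 or 5 gave 540, 579, 546, 542 or 574 such pairs.

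The 8 opposite pairs with the highest lesser share are given with the Naive residue first, its position and then the MP residue. In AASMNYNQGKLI and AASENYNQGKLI the change is M4E. The Naive member took 1.18, 1.25, 1.44, 1.55 and 1.77% of Naive reads and 0.138% of MP 3, with at most 0.000794% in the other MP libraries. The MP member took 2.32, 1.28, 2.11, 2.26 and 2.70% of MP reads and 0.375 to 0.597% of Naive reads. Both loops were thus common in Naive cells, and 1 of them was common in MP cells. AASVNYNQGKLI differs from the same MP loop by V4E, and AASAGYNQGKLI from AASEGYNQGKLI by A4E. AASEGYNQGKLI took 0.440 to 0.920% of MP and 0.162 to 0.190% of Naive reads (edgeR adjusted p = 0.00263), and its call was lost with no count filter, at 0.137. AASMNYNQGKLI and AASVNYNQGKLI were no longer called once a Naive library, whichever it was, was removed, at 0.0509 to 0.0594.

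The other 5 pairs differ at position 3. ALMNYNQGKLI differs from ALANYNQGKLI by M3A and from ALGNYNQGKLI by M3G, and took 0.441 to 0.547% of Naive and 0 to 0.0607% of MP reads. ALPSSNTNKVV differs from ALASSNTNKVV by P3A and from ALGSSNTNKVV by P3G, and took 0.378 to 0.526% of Naive and 0 to 0.0845% of MP reads. These 2 Naive members had edgeR adjusted p of 0.0432 and 0.0486. Neither was called once a Naive library or MP 4 was removed, at 0.0516 to 0.0841. AIAPSSNTNKVV differs from AIVPSSNTNKVV by A3V. The first took 0.487, 0.579, 0.557, 0.483 and 0.446% of Naive reads and was listed in no MP library. Against a floor of 3 reads per MP library it was at least 1166-fold lower in MP. AIVPSSNTNKVV took 0.490, 1.24, 0.297, 0.323 and 0.709% of MP reads and 0.00171 to 0.0896% of Naive reads (edgeR adjusted p = 0.00956).

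All residues at those positions were then compared, on loops that were chosen after their values were seen. Of 16 tested loops of the form AASxNYNQGKLI, glutamate alone was called higher in MP, 9 were lower and 6 had no call. Over all 5954 loops tested 12.6% were called higher and 48.1% lower, and no test set these counts apart from those shares. Histidine, asparagine and serine in this form were listed in no MP library, so they could not be called higher. The call of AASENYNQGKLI was lost with no count filter (edgeR adjusted p = 0.0559). Glutamine, which is glutamate with an amide in place of the acid, was without a call, at 0.155 to 0.205% of Naive and 0.229 to 0.396% of MP reads (edgeR adjusted p = 0.0957). Of 14 of the form AASxGYNQGKLI, glutamate was again the single residue called higher, and 11 were lower. Among these 11, histidine, isoleucine, serine, tryptophan and tyrosine were listed in no MP library. Aspartate, which shares the charge of glutamate, had no call in either form, at edgeR adjusted p = 0.297 in both. Of 9 loops ALxSSNTNKVV, glycine, alanine and valine were higher in MP and proline, threonine, leucine and histidine lower. Histidine in this form had a Naive mean of 0.00571% and was listed in no MP library, so it could not be called higher. Of 9 loops ALxNYNQGKLI, glycine, alanine and serine were higher and methionine lower. ALVSSNTNKVV took 0.346 to 0.997% of MP and 0 to 0.00760% of Naive reads, whereas ALSSSNTNKVV took 0.000587 to 0.378% of MP and 0.435 to 0.532% of Naive reads without a call (edgeR adjusted p = 0.234).

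**Figure D5:**
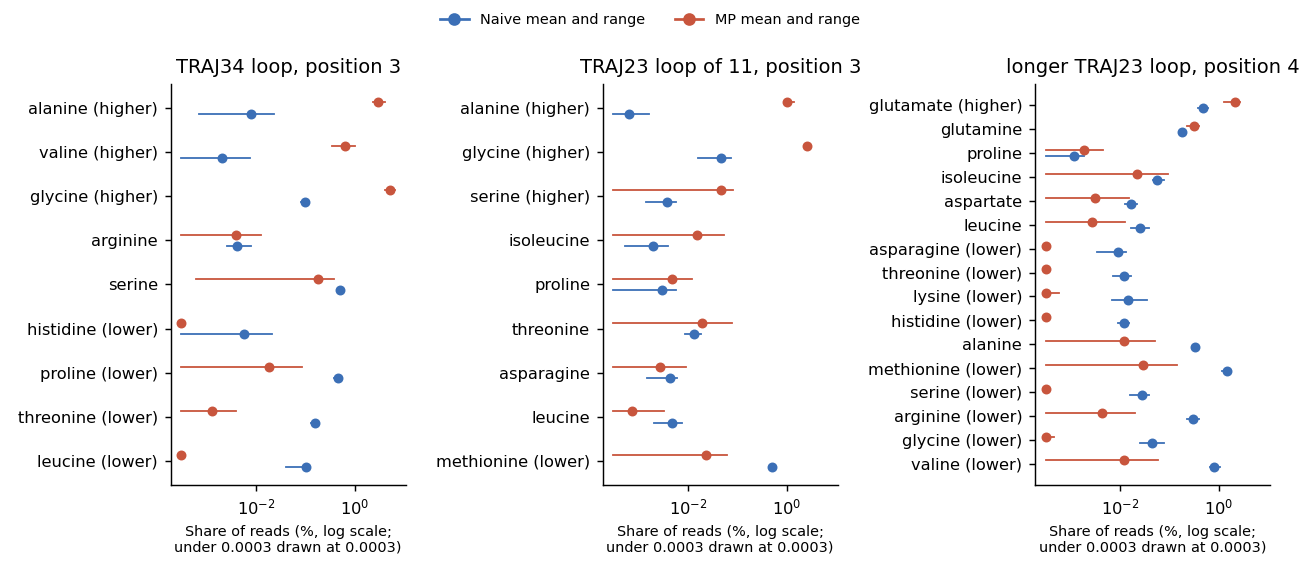
Share of reads (%, log axis, values under 0.0003% drawn at 0.0003%) of loops that differ only in the named residue, with the mean and range of 5 Naive and 5 MP libraries; higher and lower mark edgeR calls in MP. In the TRAJ23 loop of 12 residues glutamate is the only residue called higher, and in both loops of 11 residues alanine and glycine are called higher.

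Relatedness among the most abundant loops did not pass the test between the subsets. Of the 100 most abundant loops of a library, 47, 48, 48, 48 and 46 had another of the 100 at 1 substitution in Naive libraries 1 to 5, and 50, 57, 45, 49 and 55 in MP libraries 1 to 5. The means were 47.4 ± 0.894 and 51.2 ± 4.82 (SD, n = 5 each; exact permutation test, two-sided p = 0.175), and the difference was 5.35 without MP 3 (exact permutation p = 0.0159). Where loops with the same last 6 residues were not counted as neighbours, no Naive library had any, and MP libraries had 8, 4, 2, 0 and 7 (exact permutation p = 0.0476). An example is ALSGGKLI and ALRGGKLI, of 8 residues, at 0.220% and 0.151% of MP reads, in which the substitution reaches into the last 6 residues. The pairs counted had 8 or 9 residues, apart from AVSAFNNAPR and AVSAYNNAPR of 10 residues in MP 3. Loops of 8 or 9 residues were more frequent in MP, and the bearing of length on this count was not tested.

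Some loops were common in both subsets and had no call. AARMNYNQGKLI took 0.396, 0.458, 0.472, 0.545 and 0.682% of Naive reads and 0.492, 0.466, 0.173, 0.383 and 0.725% of MP reads, and the groups overlapped widely (edgeR adjusted p = 0.739). It keeps the methionine at position 4 that was rare in MP loops of the form AASxNYNQGKLI. AISSNTNKVV took 0.322 to 0.377% in Naive and 0.0320 to 0.255% in MP (edgeR adjusted p = 0.124). AFSSNTNKVV was even in Naive, at 0.222 to 0.274%, but in MP took 0.941% of MP 1 and at most 0.00424% of the other 4 libraries. It was called lower in MP without MP 1 (edgeR adjusted p = 0.00396).

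Calls made without a library held in that library. When each MP library was left out of the edgeR fit, the loops called higher in MP without it took 63.1 to 66.6% of its reads, and those called lower took 2.20 to 3.51%. When each Naive library was left out, the loops called lower in MP took 49.8 to 51.6% of its reads and those called higher 1.86 to 2.17%. The libraries left out shared the control group and the other replicates of these fits.

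MP loops were followed into the prostate tumours, whose tissue, age, genotype and sort all differ from those of the MP libraries and cannot be told apart. Of the loops called higher in MP, 216 of 753 were listed in at least 1 tumour, and of those called lower 236 of 2863. The first took 4.85 to 12.6% of tumour reads (8.03 ± 3.02%, SD, n = 5) and the second 1.64 to 4.10% (2.66 ± 1.02%). The second value was 8.74% without MP 5, where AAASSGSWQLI, at 0.848 to 10.0% of tumour reads, was among the loops called lower in MP. Without MP 1 and MP 5 the mean values were 4.60% and 11.1%, in the opposite order. In the main fit, tested loops without a call took 14.3% (Tumour 4) to 28.1% (Tumour 3) of tumour reads. That was more than either called set in every tumour. Loops not tested took 59.1% (Tumour 3) to 77.2% (Tumour 4). The share of all tested loops that were listed in a tumour was not computed. ALGSSNTNKVV, ALASSNTNKVV and AMASSNTNKVV were listed in no tumour. Each of the others among the 10 leading MP loops was listed in at least 1, such as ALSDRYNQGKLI in 4 tumours, at 0.00429 to 0.0756% of reads. Loops of 8 or 9 residues took 2.80 to 6.75% of tumour reads, against 15.0 to 18.3% in MP.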

How the data were processed

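Alpha chain CDR3s were amplified from Trizol RNA of sorted cells by arm-PCR, a multiplex PCR run by iRepertoire, per the labels' protocols, which quote the company as sequencing on a Roche platform. How CDR3s were called, and whether reads were filtered for errors or carried molecular tags, is not given in the sources used here. Deposited values are read counts per CDR3 peptide, 1 list per library, not normalized. The files hold whole numbers from 2 upward.

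Loops were tested with edgeR 4.0.16 (limma 3.58.1, R 4.3.3): a quasi-likelihood test with robust dispersions, total reads as library size, at least 10 reads in at least 3 of the 10 libraries, and p adjusted by Benjamini-Hochberg over all loops tested, with 0.05 as threshold. The fit was tested on simulated data. Shares by start, end, length and residue were tested where their mean was at least 0.5% (all 20 residues), in python 3.11.15 with numpy 2.4.6, pandas 2.3.3 and scipy 1.17.1, by exact two-sided permutation over all splits, with p as 2 times the smaller tail and adjustment within each kind of feature. Figures used matplotlib 3.10.9. No pairing was used, since the labels do not give it. Deviations from group means of same-numbered Naive and MP libraries correlated at 0.0125 to 0.0470, which does not settle it.

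Alternatives were TMM, DESeq2 1.42.0, other count filters, a fold of at least 2, the number as a block, each library left out, and weighting by different loop. Leaving out MP 1 and MP 5, or the 10 most abundant loops of each library, was added after values were seen. Named are the 10 called loops with the highest share in each subset (1 of MP, which ends in NTGKLT, is left out because its letters can be read as bases), up to 4 members of the 3 largest families of each, the 8 opposite pairs with the highest lesser share, the 5 most abundant loops without a call, every start, length and residue past the threshold, and the 6 ends that differed most each way. The short loops, the loops that vary at 1 position and the mean length within an end were chosen outside this rule, after values were seen. The members, lists and tests were chosen with earlier results of these data known. TRAJ names of ends come from general knowledge, with no check against reference sequences. Intervals of counting error were not used, and p-values measure the spread between libraries.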

Additional observations from a re-analysis of the deposited data

Results flagged for a closer look

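Of 146 sets of 5 libraries examined, 5 had 1 library far from the other 4, where chance alone flags about 1 in 20. Loops that start with AT took 3.65% of reads in MP 4 against 2.54 to 2.78% in the other MP libraries. Threonine held 9.79% of positions 3 to 5 in MP 4 against 8.68 to 8.98% in the other MP libraries. Alanine held 7.50% of these positions in Naive 2 against 7.03 to 7.15% in the other Naive libraries. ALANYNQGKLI took 1.42% of reads in MP 5 against 0.868 to 0.994% in the other MP libraries, and ALSSSNTNKVV 0.435% in Naive 2 against 0.505 to 0.532% in the other Naive libraries. For threonine, alanine and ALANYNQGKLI every MP library lay above every Naive library, the outlying one included. No cause was tested.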

How the results depend on the processing

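Among loops and features named, 815 values kept direction and side of the threshold under an alternative, 98 lost the call, 5 gained one and 15 turned sign. Of the counts and differences that answer a comparison, 200 stayed within their limits, 26 moved beyond them, 2 gained a p under 0.05 and 1 turned sign. With at least 50 reads in 3 libraries 438 loops were higher and 846 lower in MP of 1742 tested, with 373 opposite pairs. With no filter beyond 1 read in 2 libraries 2289 were higher and 14848 lower of 28731, with 5166 pairs, and loops lower in MP took 7.18% of tumour reads. With the library number as a replicate block 613 were higher and 3047 lower. The labels do not say whether libraries of equal number share a mouse. The data do not settle it, since deviations of same-numbered libraries correlated at 0.0125 to 0.0470. Under the block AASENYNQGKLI, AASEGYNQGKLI and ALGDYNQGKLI had no call (edgeR adjusted p = 0.202, 0.301 and 0.122), and AFSSNTNKVV was called lower (0.00690). AIVPSSNTNKVV and AARDTNAYKVI had no call under the block either (edgeR adjusted p = 0.0523 and 0.0838). Without MP 1 and MP 5, 356 were higher of 4867 tested, 0 starts were higher and 0 lower of 11 tested by an exact permutation test whose smallest p is then 0.0357, and loops higher and lower in MP took 4.60% and 11.1% of tumour reads. Fewer libraries were then compared. With 1 library left out, opposite pairs ranged from 540 to 1036, tumour reads in loops lower in MP from 2.33 to 8.74%, and the difference in neighbours among the 100 most abundant loops from 2.35 to 5.35. That difference was -14.6 among the 200 most abundant (exact permutation p = 0.103) and 4.20 without neighbours of the same end.

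By different loop, 2 starts were higher and 3 lower, 3 ends higher and 7 lower, and 20 ends had shorter and 1 longer loops. Signs turned, in percentage points, for starts AM (-2.70), AW (-0.141) and AS (0.397), ends GSWQLI (0.125), GNYKYV (-0.882) and NTGKLT (-1.22), length 10 (1.45), and cysteine (0.0514) and asparagine (1.02). Without the 10 most abundant loops of each library, 3 starts and 5 residues were lower, and signs turned for ends GSWQLI (0.666) and NTGKLT (-0.471), serine (-0.0307), glycine (-0.437) and valine (0.0299). With 1 library left out the log2 fold change of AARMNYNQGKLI ranged from -0.43 to 0.016, the last without MP 3. The cause of these moves was not tested. The reads of rare loops limit the rest: loops under 10 reads were 51.6 to 79.1% of different loops in Naive and 27.8 to 58.7% in MP libraries, and took 6.16 to 14.6% and 0.384 to 5.19% of reads.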
